A study of Rattus norvegicus with 9 samples.

Results

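The genes described here were 6 genes known from the thalamus or the habenula and read in dissected rat cortex: Slc17a6, Chrnb3, Tcf7l2, Prkcd, Ndst4 and Rgs16. They are 6 of the 37209 genes of the count table, and all 6 passed the filter on low counts that left 16837 genes for testing. The genes were selected on measured values of these same rats as well as on where they are known to be expressed, so their levels are given as a description and carry no p-value. Over the 9 rats they did not rise and fall as a set. Slc17a6 and Ndst4 were highest in the same 3 rats, A1, A2 and C3, while Chrnb3, Tcf7l2, Prkcd and Rgs16 were all highest in rat B4.

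Total RNA of the frontal cortex of 9 male Wistar rats aged 14 weeks was depleted of rRNA and sequenced, and the reads counted on each gene are the data. Pups of the MS group (rats B3, B4 and B6) had been kept from their mothers for 4 h a day from postnatal day (PND) 1 to PND 21, and litters of the Control group (A1, A2 and A6) had been left undisturbed. The MS+EA group (C3, C10 and C16) had the same separation and then received electroacupuncture (EA) at the points GV20 and GV29 every other day from PND 61 to PND 81 under isoflurane. Control and MS rats received the anaesthesia without EA, and sham-treated rats are not among these 9. Libraries held from 12479905 to 19007907 counts, and every total of the MS+EA group was below every total of the other groups. Levels are given as CPM, counts scaled to a common library size, for which library sizes were adjusted by TMM, and 1 count was then worth 0.0535 to 0.0795 CPM. Nothing in the labels names the litters or the day of dissection.

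The thalamus relays sensory and motor signals to the cortex through glutamatergic neurons, and the habenula is a small group of nuclei beside it that is known for its link to aversion and depression. Cortical glutamatergic neurons load their vesicles mainly with VGLUT1, the product of Slc17a7, whereas thalamic and habenular neurons use VGLUT2, the product of Slc17a6. In adult brain a strong signal of such genes in a cortical sample can come from tissue beyond the cortex, but many of them are also used by a few cells of the cortex itself or of its coverings. In bulk tissue, fewer cells of a type and less RNA per cell cannot be told apart.

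The tissue label was checked first against genes of known place. The 8 markers of cortical glutamatergic neurons had a summed level of 2290 to 2782 CPM, and Slc17a7, their most abundant gene, was read at 16400 to 30557 counts. By group the sums were 2706 to 2782 CPM in Control, 2489 to 2743 CPM in MS and 2290 to 2542 CPM in MS+EA. Some genes known for the thalamus and the habenula were at or near 0 in all 9 rats and others were well read. Gbx2 and Shox2, transcription factors of thalamic neurons, reached at most 4 counts, in C10 for Gbx2 and in C3 for Shox2. Pou4f1, a transcription factor of habenular neurons, reached at most 1 count, and Gpr151, a receptor of the habenula, was at 0 counts in every rat, where a count of 3 is the most that a 0 allows in a library. These 4 genes were named after their values were seen. In contrast, 14 of 16 other thalamus markers and 6 of 12 habenula markers passed the filter. Rora, a nuclear receptor that the cortex also expresses, had 2009 to 2900 counts, Lef1, a Wnt pathway transcription factor, had 63 to 183, and Tac3, a tachykinin gene, had 111 to 225. The 6 genes are called by their own names, and the part of thalamic or habenular tissue in their levels was not tested.

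The promoter windows of genes that shared their highest rats are shown so that the sequences before their starts can be compared. Their orders of rats differed further down, with B3 lowest for Tcf7l2 and A1 lowest for Prkcd. RefSeq windows of 250 bases ending at the base before the annotated start, in build GRCr8, were found for 5 of the 6 genes, all but Chrnb3. The counts themselves were made on the older build Rnor_6.0, so these positions belong to the sequences only. Slc17a6 (chr1:110348197-110348446, + strand) and Ndst4 (chr2:216461293-216461542, + strand) were highest in A1, A2 and C3. Tcf7l2 (chr1:264791085-264791334, + strand) and Prkcd (chr16:5805840-5806089, - strand) were highest in B4. All are written 5′ to 3′ on the strand of the gene, with capitals for matches to the TCF/LEF motif CTTTGAT, the kind of site bound by the product of Tcf7l2, or to the E-box CAGCTG, each searched on both strands.
Slc17a6: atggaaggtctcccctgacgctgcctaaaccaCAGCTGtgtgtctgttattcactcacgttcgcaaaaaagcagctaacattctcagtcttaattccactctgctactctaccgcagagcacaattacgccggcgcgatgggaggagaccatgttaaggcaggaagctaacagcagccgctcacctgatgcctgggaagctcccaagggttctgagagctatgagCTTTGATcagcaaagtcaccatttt
Ndst4: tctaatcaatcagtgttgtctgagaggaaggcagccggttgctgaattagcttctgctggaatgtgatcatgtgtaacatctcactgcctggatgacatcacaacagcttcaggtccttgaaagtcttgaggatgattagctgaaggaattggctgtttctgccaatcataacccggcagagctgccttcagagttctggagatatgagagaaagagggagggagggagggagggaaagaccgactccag
Tcf7l2: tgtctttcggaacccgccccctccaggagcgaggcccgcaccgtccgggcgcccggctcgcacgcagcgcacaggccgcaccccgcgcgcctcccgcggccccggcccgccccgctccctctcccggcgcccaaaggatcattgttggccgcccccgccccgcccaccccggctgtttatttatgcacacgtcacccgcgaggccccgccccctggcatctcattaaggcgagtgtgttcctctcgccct
Prkcd: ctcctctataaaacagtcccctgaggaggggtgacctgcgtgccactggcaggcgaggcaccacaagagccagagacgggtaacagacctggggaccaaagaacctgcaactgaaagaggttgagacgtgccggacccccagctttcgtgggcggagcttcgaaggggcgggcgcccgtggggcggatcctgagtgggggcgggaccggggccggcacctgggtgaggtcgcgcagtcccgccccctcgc
The Slc17a6 window held 1 TCF/LEF match at -25 to -19 from the start and 1 E-box at -218 to -213, and the windows of Ndst4, Tcf7l2, Prkcd and Rgs16 held neither. Of the 33469 windows of this length in the RefSeq table, 3.149% held the TCF/LEF letters and 11.97% the E-box. The base composition of the pair highest in A1, A2 and C3 lay near the median of all windows (51.2% G and C), at 50.8% for Slc17a6 and 48.8% for Ndst4. The others were richer, with 73.6% for Tcf7l2, 67.6% for Prkcd and 66.8% for Rgs16.

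Slc17a6 encodes the vesicular glutamate transporter VGLUT2. It was read at 307, 264 and 135 counts in Control rats A1, A2 and A6, at 94, 140 and 137 counts in B3, B4 and B6 (MS), and at 291, 176 and 133 counts in C3, C10 and C16 (MS+EA). Rats C3, A1 and A2 stood highest and B3 lowest, and 1 Control rat, A6, lay among the MS rats. The mean level was 13.6 ± 4.55 CPM in Control, 7.49 ± 1.76 CPM in MS and 14.2 ± 5.24 CPM in MS+EA (SD, n = 3 each). The ranges of MS+EA and MS did not overlap, with a ratio of means of 1.89, while the ranges of Control overlapped with those of both other groups. The share of all genes whose ranges did not overlap was not counted. Nothing is therefore read from such gaps, here or for the genes below. The lowest MS+EA rat, C16, had 10.6 CPM and the highest MS rat, B4, had 8.76 CPM, so the gap between these groups was small beside the spread within MS+EA. The log2 fold change of MS+EA relative to MS was 0.92 (SE 0.29), and it was 0.59 without C3.

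Ndst4, which encodes an enzyme that modifies heparan sulfate chains, had a level in 3 rats far above that in the other 6. Control rats A1, A2 and A6 had 511, 319 and 14 counts, rats B3, B4 and B6 of the MS group had 16, 22 and 11 counts, and MS+EA rats C3, C10 and C16 had 385, 22 and 23 counts. The high rats were 2 Control rats, A1 and A2, and 1 MS+EA rat, C3, and the remaining rats of those groups, A6, C10 and C16, lay at 0.870 to 1.83 CPM, close to the MS rats at 0.661 to 1.38 CPM. The highest rat, A1, was 18.6 times the median rat and 41.4 times the lowest. The mean level was 15.9 ± 13.6 CPM in Control, 0.990 ± 0.361 CPM in MS and 10.004 ± 14.5 CPM in MS+EA, so the SD was of the size of the mean in the groups that held a high rat. All MS+EA rats lay above all MS rats, from 1.47 CPM in C10 against 1.38 CPM in B4. The log2 fold change of MS+EA relative to MS was 3.34 (SE 1.23) and fell to 0.74 without C3, so rat C3 decided most of its size.

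Slc17a6 and Ndst4 had a Pearson r of 0.896 over the 9 rats on the log2 scale. This is a description over 9 points, and within each rat both genes share the library, dissection and depth. The gene most like each of them was read at low counts. Lnp1, the gene most like Slc17a6 (r = 0.948), had 37, 14 and 2 counts in Control, 0, 5 and 1 in MS and 24, 4 and 3 in MS+EA. Agtr1a, an angiotensin II receptor and the gene most like Ndst4 (r = 0.959), had 30, 16 and 4 counts in Control, 3, 4 and 4 in MS and 23, 4 and 2 in MS+EA. Both genes repeated the order in which A1 and C3 stood above the rest. Well-read genes were nearly as like. Slc35d1 (r = 0.944 with Slc17a6) had 229 to 393 counts, and Zfp536 (r = 0.929 with Ndst4) had 953 to 1684. Ugt8, the gene of the table that follows Ndst4 on the chromosome and encodes an enzyme of myelin lipid synthesis, had 861, 706 and 462 counts in Control, 732, 541 and 574 in MS and 984, 522 and 642 in MS+EA, a far smaller spread.

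**Figure D1:**
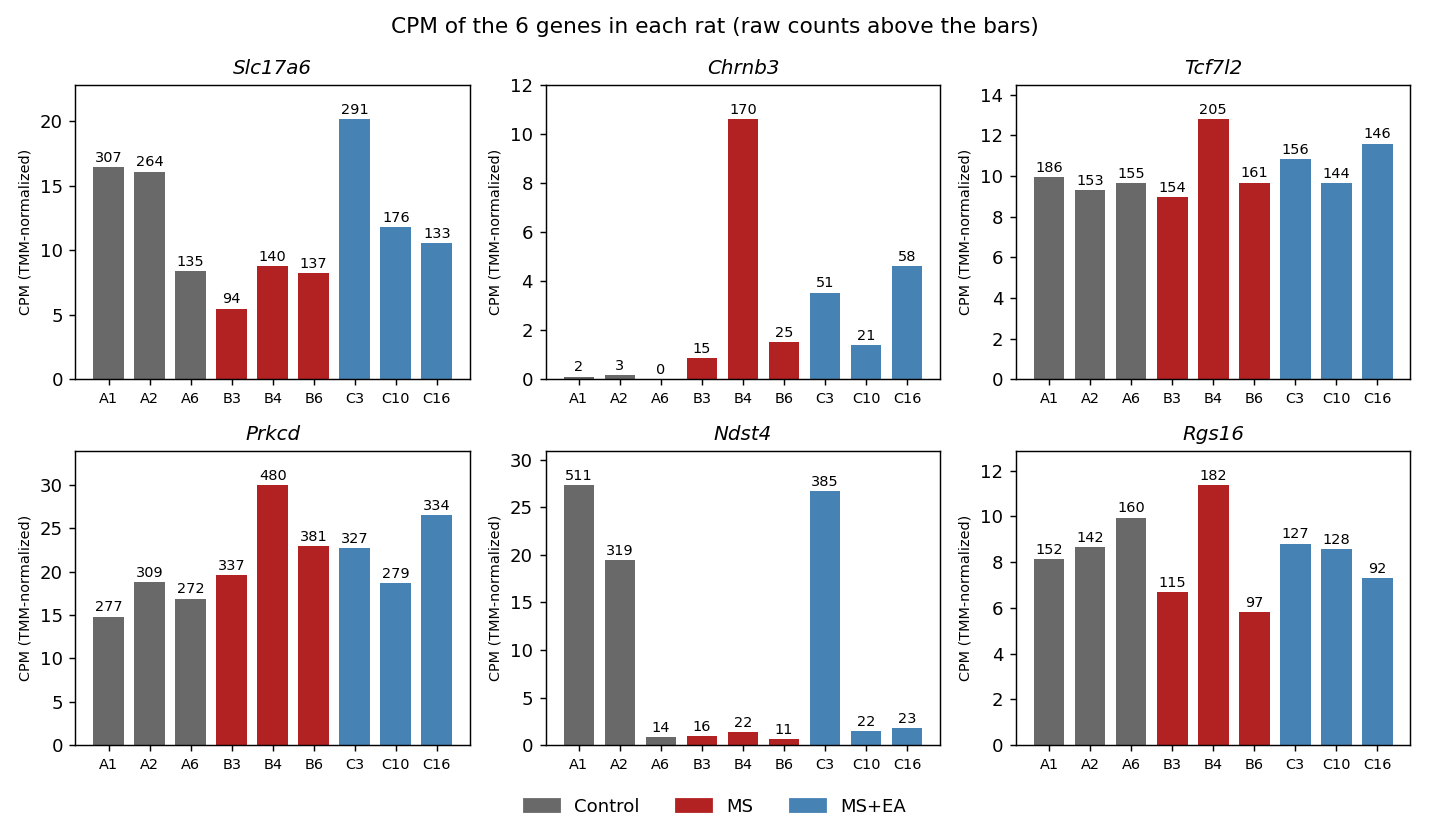
Each panel plots 1 gene, with the rats on the horizontal axis and TMM-normalized CPM on a vertical axis that starts at 0; bars are single rats coloured by group, and the numbers above them are raw counts. Ndst4 stands high in A1, A2 and C3 (511, 319 and 385 counts) and at 23 counts or fewer elsewhere, whereas Chrnb3 stands highest in B4 (170 counts) and has 3 counts or fewer in the Control rats.

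Chrnb3 encodes the beta 3 subunit of nicotinic acetylcholine receptors, found in the habenula and in dopamine neurons. It was nearly absent from Control rats A1, A2 and A6, which had 2, 3 and 0 counts, and was read at 15, 170 and 25 counts in B3, B4 and B6 of the MS group and at 51, 21 and 58 counts in MS+EA rats C3, C10 and C16. Every separated rat, treated or not, lay above every Control rat, and B4 stood 2.31 times above the next rat, C16. How many of all genes tested were parted in this way was not counted. The mean level was 0.0967 ± 0.0919 CPM in Control, 4.34 ± 5.46 CPM in MS and 3.19 ± 1.63 CPM in MS+EA. The counts pooled over rats, 210 in MS against 5 in Control, gave a CPM ratio of 43.2 with an exact 95% interval of 18.2 to 134, and it was 12.1 (4.78 to 39.3) without B4. For MS+EA, 130 counts against the same 5 gave a ratio of 31.7 (13.3 to 99.4). These intervals cover counting error only. They leave out the spread between rats and the choice of Chrnb3 on these same values, so they are not read as a test. MS+EA and MS overlapped, and their log2 fold change turned from -0.45 (SE 0.73) to 1.42 without B4.

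Genes of other nicotinic subunits were read beside Chrnb3. Chrna6, its neighbour on the chromosome and its usual partner subunit, had 3 counts in B3, 7 in B4 and 0 in every other rat, so it too was highest in B4 and at 0 in Control, at counts too low to order the rats further. Chrnb2 and Chrna4, the main subunits of cortical receptors, had 515 to 1263 and 488 to 858 counts, with A1 and A2 as their highest rats. Chrnb4 and Chrna5, further nicotinic subunits rich in the habenula, had at most 8 and 11 counts. Chrna3, a subunit of the same family, had 23, 22 and 20 counts in Control, 20, 19 and 19 in MS and 5, 12 and 15 in MS+EA. The genes most like Chrnb3 over the 9 rats were RGD1564125 (r = 0.977), Cald1 (r = 0.976), a protein of contractile cells, and Gstm2 (r = 0.975), a glutathione transferase.

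Prkcd encodes protein kinase C delta and is strong in sensory thalamus. Control rats A1, A2 and A6 had 277, 309 and 272 counts, B3, B4 and B6 of the MS group had 337, 480 and 381 counts, and MS+EA rats C3, C10 and C16 had 327, 279 and 334 counts. B4 was again highest, followed by C16, and all MS rats lay above all Control rats, while MS+EA overlapped with both. The mean level was 16.9 ± 2.01 CPM in Control, 24.2 ± 5.30 CPM in MS and 22.6 ± 3.93 CPM in MS+EA. The nearest rats of MS and Control were B3 with 19.7 CPM and A2 with 18.8 CPM. The log2 fold change of MS relative to Control was 0.52 (SE 0.17), and it was 0.34 without B4.

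Tcf7l2 encodes a transcription factor of the Wnt pathway that marks thalamic and habenular neurons and is also found in other cells of the brain. It was even over the groups, with 186, 153 and 155 counts in Control, 154, 205 and 161 in MS and 156, 144 and 146 in MS+EA. The groups overlapped in every comparison, and B4 with 12.8 CPM and C16 with 11.6 CPM were the highest rats. The mean level was 9.64 ± 0.313 CPM in Control, 10.5 ± 2.05 CPM in MS and 10.7 ± 0.985 CPM in MS+EA. The log2 fold change of MS relative to Control was 0.12 (SE 0.15) and became -0.05 without B4.

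Rgs16 encodes a regulator that shortens G protein signals and is expressed in thalamus. It had 152, 142 and 160 counts in Control, 115, 182 and 97 in MS and 127, 128 and 92 in MS+EA. B4 was the highest rat and B6, of the same group, the lowest, so the MS group spanned the whole range of the 9 rats. The mean level was 8.91 ± 0.933 CPM in Control, 7.97 ± 2.98 CPM in MS and 8.23 ± 0.806 CPM in MS+EA. The log2 fold change of MS relative to Control was -0.16 (SE 0.22) and -0.51 without B4, with overlapping ranges in all 3 comparisons.

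In the fit across all genes, edgeR's quasi-likelihood test, with thresholds of 0.05 for the adjusted p and 1.5 for the fold change, called 0.0238% of the 16837 genes for MS relative to Control (4 genes), 0.0178% for MS+EA relative to MS (3 genes) and 1.37% for MS+EA relative to Control (230 genes). Of the 6 genes it called 0, 0 and 1, and the call was Chrnb3, higher in MS+EA than in Control. Since these contrasts were among the values on which the genes were chosen, nothing is read from those counts. The call of Chrnb3 was lost when A1, A2, A6 or C16 was left out, and the gene was not tested where at least 10 counts were required in every rat. MS relative to Control and MS+EA relative to MS share the MS rats, so a value such as that of B4 enters both with opposite sign. For Slc17a6 the log2 fold changes were -0.87 (SE 0.29), 0.92 and 0.06 (SE 0.28) for MS relative to Control, MS+EA relative to MS and MS+EA relative to Control. For Ndst4 they were -4.01 (SE 1.21), 3.34 and -0.67 (SE 0.95). The last of these was -3.27 without C3 and -0.02 without A1, which shows how far single rats set it.

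**Figure D2:**
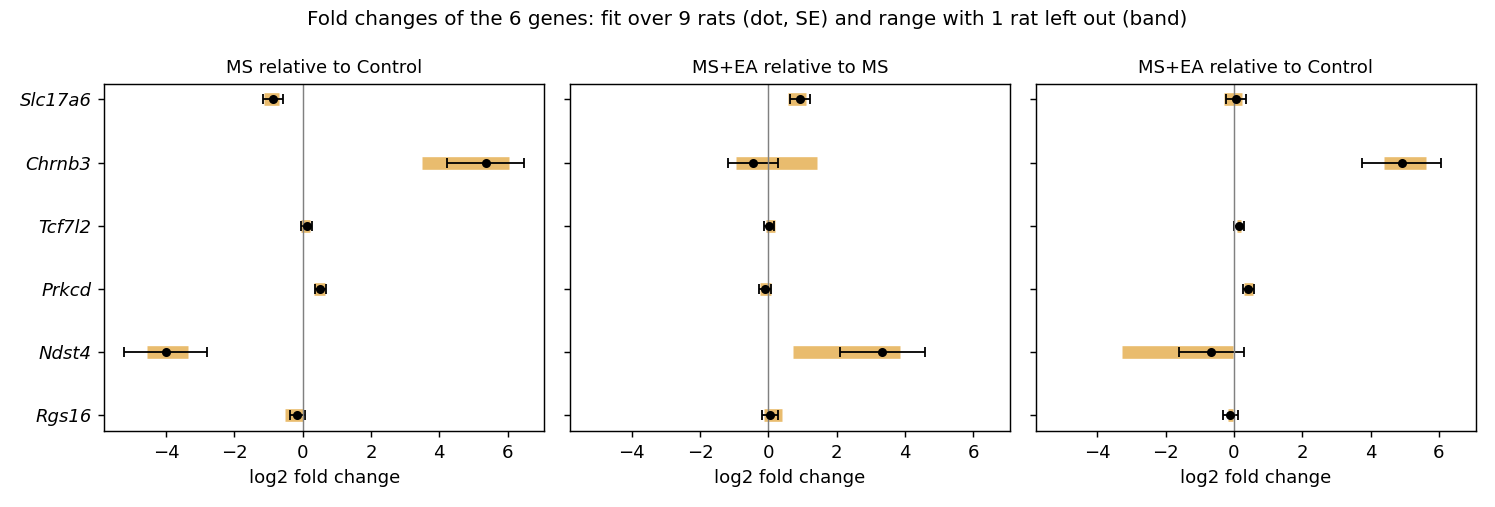
Each panel plots 1 comparison, with log2 fold change on the horizontal axis and the 6 genes on the vertical axis; dots are the fit over 9 rats, whiskers the SE and bands the range when 1 rat is left out. The bands of Chrnb3 (-0.94 to 1.42) and Ndst4 (0.74 to 3.86) for MS+EA relative to MS are the widest of that panel, and those of Tcf7l2 lie within 0.22 of 0 in all 3.

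Other genes of the same places were then read from lists not trimmed by their values. These lists were, however, chosen with earlier results of these data known. Of 16 other thalamus markers 14 were tested, and of 12 habenula markers 6. None was called by edgeR in any of the 3 comparisons, where 0.0238%, 0.0178% and 1.37% of all genes tested were. DESeq2 also called none of them. With shares that small, nothing is read from 0 calls. At an unadjusted p under 0.05, 3, 1 and 3 thalamus markers passed for MS relative to Control, MS+EA relative to MS and MS+EA relative to Control, and 1, 0 and 0 habenula markers, where 10.6%, 12.4% and 22.5% of all genes tested did. The median log2 fold changes of the thalamus markers were 0.04, -0.09 and 0.07, those of the habenula markers were 0.04, -0.13 and -0.09, and those of all genes lay between -0.001 and 0.006. The summed level of the thalamus list varied from 378 to 433 CPM over the rats, and that of the habenula list from 303 to 430 CPM. Abundant genes set much of these sums, with mean levels of 159 CPM for Rora, 201 CPM for Etv1 and 148 CPM for Nwd2. A change of a few CPM in the other markers would hardly show in such a sum. Rats A1 and A2, high in Slc17a6 and Ndst4, had 383 and 378 CPM on the thalamus list, the highest and the lowest of the Control rats. C3, also high in both genes, had 409 CPM, above every Control rat and below B4 (433 CPM) and B6 (423 CPM).

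Of the genes with at least 10 counts in some rat, 3 of 14 thalamus markers and 1 of 7 habenula markers were highest in C3, as Slc17a6 was. In B4 the numbers were 4 of 14 and 1 of 7. The share of all genes highest in each rat was not counted, and nothing is read from these numbers. Cbln1, a synapse organizer, had 64, 79 and 60 counts in Control, 36, 46 and 83 in MS and 111, 80 and 58 in MS+EA. Its log2 fold change of MS+EA relative to MS was 0.83 (edgeR adjusted p = 0.319). Wnt9b, a Wnt ligand, had 65, 56 and 33 counts in Control, 25, 25 and 30 in MS and 51, 17 and 21 in MS+EA. Its 3 highest rats were A1, A2 and C3, and its r with Ndst4 was 0.88. Ntng1, a netrin of axon guidance, had 590 counts in C3 and 335 to 531 elsewhere, and Calb2, the calcium-binding protein calretinin, had 171 counts in C3 and 107 to 162 elsewhere. For MS+EA relative to MS, edgeR gave an adjusted p of 0.440 for Ntng1 and 0.564 for Calb2. Synpo2, an actin-binding protein and 1 of the 4 thalamus markers highest in B4, had 237 counts there and 39 to 83 in the other rats (log2 fold change of MS relative to Control 1.31, edgeR adjusted p = 0.374).

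Libraries that stood apart in other tissue markers were then set beside the orders of the genes. B4 was the rat with most genes far above the other rats: 20 genes had at least 20 counts in B4 and at least 3 times the level of the next rat, against 1 to 7 genes in each of the other 8 rats. Markers of the hypothalamus summed to 50.3 CPM in B4 and to 2.30 to 7.92 CPM in the others. Among them Avp, the vasopressin gene, had 503 counts in B4 and at most 29 elsewhere, and Oxt, the oxytocin gene, had 258 and at most 25. Of the 9 hypothalamus markers with at least 10 counts in some rat, only 3 were highest in B4. Agrp had 2 counts in B4 and 4 to 12 elsewhere, and Pmch had 4 in B4 and 31 in A1. A1 was the next rat on that list and the highest for Hcrt, the hypocretin gene, with 23 counts against 2 or fewer elsewhere. Markers of the choroid plexus summed to 21.8 CPM in B4 against a median of 3.60 CPM, with Ttr, the transthyretin gene, at 146 counts in B4 and 7 to 37 elsewhere and the potassium channel gene Kcnj13 at 112 and 0 to 46. All 6 choroid plexus markers with at least 10 counts in some rat were highest in B4, and Otx2, a defining transcription factor, was at 0 in every rat.

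A list of 13 genes of the fibroblasts of the leptomeninges, the thin membranes over the cortex, was added after the values of B4 had been seen, and it is a description only. Its summed level was 177, 125 and 105 CPM in Control rats A1, A2 and A6, 197, 1938 and 302 CPM in B3, B4 and B6 of the MS group, and 610, 234 and 704 CPM in MS+EA rats C3, C10 and C16. B4 was highest for 12 of the 13 genes and C3 for the remaining one, Ogn. Ptgds, a prostaglandin synthase and the most abundant, had 22576 counts in B4 and 877 to 6254 in the other rats, and the collagen gene Col1a1 had 1164 and 102 to 573. Ptgds set much of the sums, with 1412 of the 1938 CPM in B4 and 112 of the 177 CPM in A1. The order B4, C16, C3, B6, C10, B3 of this list was also that of Chrnb3 among the separated rats, and the Control rats had the lowest 3 sums of the list. Ptgds alone had the same order among the separated rats.

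Chrnb3, Tcf7l2 and Prkcd moved with that list, and Slc17a6, Ndst4 and Rgs16 did not. Over the 9 rats the median r with the 13 genes was 0.88 for Chrnb3, 0.89 for Tcf7l2 and 0.90 for Prkcd, against -0.02 for Slc17a6, -0.16 for Ndst4 and 0.20 for Rgs16. Without B4 these medians were 0.84, 0.79 and 0.83 against 0.17, -0.04 and -0.33. An r above 0.8 was reached with 11 of the 13 genes by Chrnb3, 12 by Tcf7l2 and 10 by Prkcd, where 2.89%, 1.88% and 2.01% of all other genes tested reached it. Without B4 it was reached with 9, 5 and 7 of the 13. The gene most like Tcf7l2 was Fbln1, the matrix protein fibulin 1, with an r of 0.991, and its counts were 479, 315 and 392 in Control, 323, 1005 and 358 in MS and 512, 313 and 574 in MS+EA. Prkcd was most like Lox (r = 0.979), an enzyme that crosslinks collagen, followed by Fibin (r = 0.976) and Tbx18 (r = 0.972), a transcription factor of the list. Of the 10 genes most like each, 0 for Tcf7l2 and 1 for Prkcd were on the leptomeningeal list. Within each rat all these genes share the library, dissection and depth. The part of meningeal, choroid plexus or hypothalamic tissue in the levels of Chrnb3, Tcf7l2 and Prkcd was not tested.

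**Figure D3:**
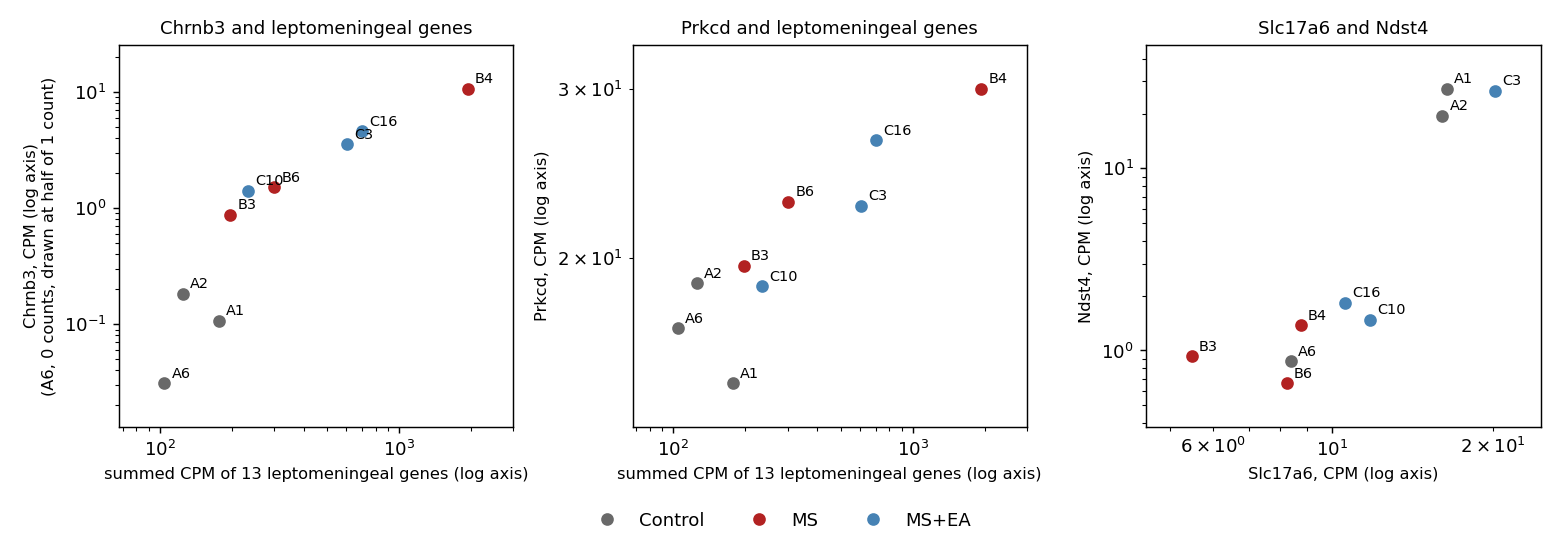
Each point is 1 rat, coloured by group, on log axes of CPM; the left and middle panels set Chrnb3 and Prkcd against the summed level of 13 leptomeningeal genes, and the right panel sets Ndst4 against Slc17a6, with A6, which had 0 counts of Chrnb3, drawn below the level of 1 count. B4 is at the upper right of the left and middle panels (1938 CPM on the horizontal axis), and A1, A2 and C3 form the upper right group of the right panel.

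Rat C3, high in Slc17a6 and Ndst4, stood apart in other lists. Markers of the olfactory bulb summed to 69.3 CPM in C3, 33.1 CPM in C16, 24.4 and 25.7 CPM in A1 and A2, and 10.007 to 15.2 CPM in the other 5 rats. Cdhr1, a cadherin of olfactory bulb output neurons, had 821 counts in C3, 348 and 328 in A1 and A2, 308 in C16 and 88 to 174 in the others, and Eomes, a transcription factor of the same neurons, had 65 counts in C3, 22 in C16 and 8 or fewer elsewhere. The high rats of Slc17a6 were thus among the 4 highest rats of this list, and C16, the remaining one, had 133 counts of Slc17a6 and 23 of Ndst4. Mature oligodendrocyte markers summed to 4357 CPM in C3, 3382 CPM in A1, 3151 CPM in C16, 3037 CPM in B3 and 2891 CPM in A2, with a lowest value of 1924 CPM in B4, and all 8 were highest in C3. Mbp, the myelin basic protein gene, had 27504 counts in C3 and 12171 in B4. The median r of these 8 genes was 0.78 with Ndst4 and 0.61 with Slc17a6, although C16 and B3, above A2 on this list, had only 23 and 16 counts of Ndst4 against 319 in A2. The part of olfactory bulb tissue or white matter in the levels of Slc17a6 and Ndst4 was not tested.

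In the remaining lists no rat was above 1.70 times the median rat. Striatum markers summed to 388 to 487 CPM, with C3 highest, and the enkephalin gene Penk had 750 counts in C3 and 411 to 737 elsewhere. Markers of the basal forebrain and septum summed to 28.0 CPM in B4 and 14.0 to 21.9 CPM in the others, where Zic1, a transcription factor also found in meninges, had 412 counts in B4 and 183 to 256 elsewhere, and Slc18a3, the vesicular acetylcholine transporter gene, had 2 to 20 counts. Midbrain and hindbrain monoamine markers summed to 2.24 to 4.53 CPM, with Th, the tyrosine hydroxylase gene, at 19 to 45 counts and the dopamine transporter gene Slc6a3 at 6 or fewer, while Fev was at 0 in every rat. Hippocampus markers summed to 24.7 to 35.5 CPM, with Prox1 at 310 to 530 counts and Iyd at 10 or fewer. None of these lists, nor of the hypothalamus, choroid plexus, olfactory bulb, oligodendrocyte and cortical lists, held a gene that edgeR called in any of the 3 comparisons. Of all 16837 genes tested only 0.0238%, 0.0178% and 1.37% were called, so nothing is read from 0 calls in short lists. The leptomeningeal list was not part of this count.

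**Figure D4:**
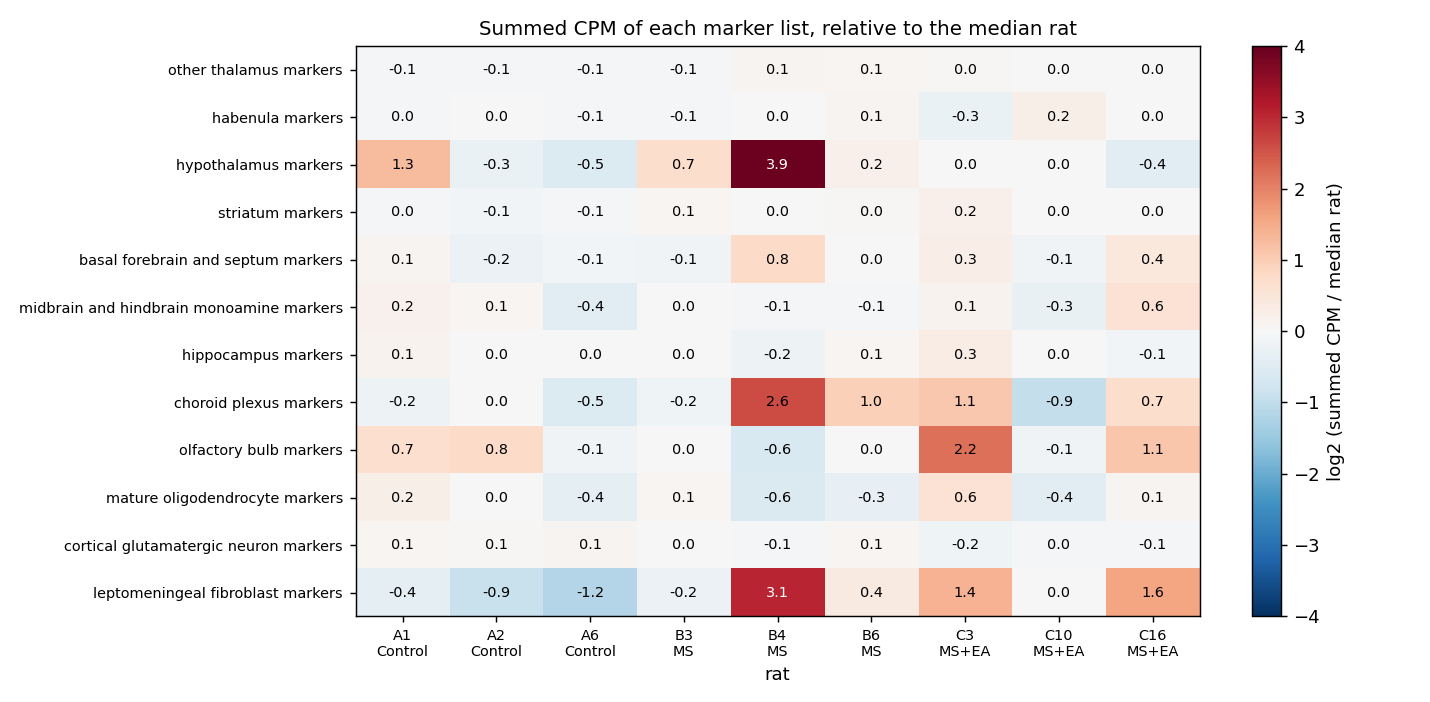
Each row is 1 marker list and each column 1 rat with its group; the colour and the number in a cell are the log2 ratio of the summed CPM of that rat to the median rat. B4 has the highest cells of the hypothalamus, choroid plexus and leptomeningeal lists (15.1, 6.05 and 8.29 times the median rat) and C3 that of the olfactory bulb list (4.57 times), while the thalamus list stays at or below 1.09 times in every rat. Rora is the most abundant gene of the thalamus list.

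Close relatives of the 6 genes, which could take or give reads where sequences are alike, were looked at last. Of 17 paralogs 15 were tested and none was called at both thresholds, where at most 1.37% of all genes tested were in any comparison. Slc17a7 was lower in every MS+EA rat (1225 to 1337 CPM) than in any other rat (1436 to 1635 CPM), with a log2 fold change of MS+EA relative to Control of -0.30 (edgeR adjusted p = 0.0207). For the same comparison Ndst1 had -0.35 (edgeR adjusted p = 0.0207) and Chrnb2 -0.39 (edgeR adjusted p = 0.0411), and all 3 stayed under the fold threshold. Ndst2, the relative of Ndst4 with the largest ratio of highest to median rat, had 1 to 13 counts. Ndst3, another relative, had 685 to 917 counts and none of the 3 high rats of Ndst4 stood out in it. Tcf7, a relative of Tcf7l2, had 90 counts in B4 and 40 to 72 elsewhere, which again put B4 highest. Averaged over all 6 genes after scaling each to equal variance, the pattern was most like that of Dnah11 (r = 0.975), an axonemal dynein gene, followed by Igfbp5 (r = 0.950), an insulin-like growth factor binding protein, and Csf1 (r = 0.936), the macrophage growth factor. The remaining 7 of the 10 genes most like that average were LOC102550957, Bst1, Slc26a7, Bcat2, Nbl1, LOC102555904 and Slc38a11, with r from 0.906 to 0.930. That average mixes genes with different orders of rats.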

How the data were processed

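Total RNA of the frontal cortex of 9 rats was sequenced on a HiSeq X after removal of rRNA, and the authors deposited whole-number counts of reads per gene for 37209 genes, without normalization. The submitters' processing notes name HISAT2 2.0.4 and the build Rnor_6.0. The counting program, its strand setting and its treatment of reads with several locations are not given in the sources used here, so reads of overlapping genes and of near-identical relatives could be split or shared. In the later annotation GRCr8, used for names and neighbours only, 2 lncRNA genes overlap Tcf7l2 and 1 pseudogene overlaps Ndst4, and none of these is in the table.

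Groups were taken from the labels, with 3 rats each. The labels name separate rats but no litters, batches or dates, so p-values measure the spread between these rats. Totals of 12479905 to 19007907 counts set the precision, and 3 counts served as the detection floor. Counts were normalized by TMM in edgeR 4.0.16 (R 4.3.3), genes were kept by filterByExpr with a minimum count of 10, and all 9 rats entered 1 quasi-likelihood fit with group means. A gene was called at a Benjamini-Hochberg adjusted p under 0.05 over 16837 genes and a fold change above 1.5, the thresholds of the study, which used EBSeq. SE values of log2 fold changes come from that fit. The alternatives were DESeq2 1.42.0, scaling by RLE or by total counts, filters of at least 1 count in some rat or at least 10 in every rat, a fit of the 6 rats compared, and each rat left out in turn. The model was tested on simulated counts.

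The 6 genes and the lists were chosen with earlier results of these data known. The leptomeningeal list, the likeness of single genes and the values without B4 were added after the values had been seen. Named genes were the 6 genes in every rat; the thalamus and habenula markers that were called or were highest in the highest rat of Slc17a6; from each other list the most abundant gene and the one with the largest ratio of highest to median rat; and the 10 genes most like the mean of the 6. A gene that this rule names is not reported here. Genes named outside that rule, such as the nicotinic subunits, other well-read or near-absent thalamus and habenula markers, Synpo2, Hcrt, Col1a1, Tcf7, Ndst1, Ndst3 and neighbours, were chosen after their values were seen. Likeness is Pearson's r of log2(CPM + 0.1). The ratio of Chrnb3 counts has an exact Clopper-Pearson interval (scipy 1.17.1). Tables and plots used Python 3.11.15, pandas 2.3.3, numpy 2.4.6 and matplotlib 3.10.9.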

Additional observations from a re-analysis of the deposited data

How the results depend on the processing

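The 3 totals of genes called moved most. For MS relative to Control 4 genes were called, and 70 by DESeq2, 207 with a filter of at least 1 count and 11 in a fit of the 6 rats compared. For MS+EA relative to MS 3 were called, and 37 by DESeq2, 72 with at least 1 count, 1 in the 6 rats and 0 by edgeR with at least 10 counts in every rat, where 2093 genes had passed an unadjusted p under 0.05 under the usual filter. For MS+EA relative to Control 230 were called, and 469 with at least 1 count. With 1 rat left out the totals ranged from 2 to 22 (22 without B3), from 1 to 4 (1 without C16) and from 71 to 261 (71 without A1 and 121 without C10). The cause was not tested. Of the thalamus and habenula markers 0 were called in all of these settings but for 1, Synpo2, for MS relative to Control with at least 1 count. Under that filter Slc17a6, Chrnb3 and Ndst4 also passed for MS relative to Control, and Slc17a6 and Ndst4 for MS+EA relative to MS. Chrnb3 passed for MS relative to Control under DESeq2 and without B3 too. These contrasts were among the values on which the 6 genes were chosen, so nothing is read from their passing. DESeq2, the other scalings and the other filters kept the sign of each log2 fold change of the 6 genes where a value was obtained.

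Without the most abundant gene of the list, the highest rat stood at 6.98 times the median rat for the hypothalamus list, 1.63 for the hippocampus list and 2.21 for the olfactory bulb list. With at least 2 times the next rat in place of 3, the genes far above in 1 rat numbered 14 in A1, 11 in A2, 15 in A6, 4 in B3, 64 in B4, 4 in B6, 19 in C3, 20 in C10 and 21 in C16. No paired analysis was possible because no pair of groups shares more than 1 replicate number and each rat is its own animal. At 5 Control counts of Chrnb3, and at 3 rats a group, only large differences of it could be seen.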
